A study of Homo sapiens with 6 samples.

Results

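The metallothioneins and the genes that sense and move zinc were examined in UMUC3, a bladder cancer line of established human cells, with and without TIM-1. The set was fixed by name and holds 10 of the 60605 genes in the deposited count table. It comprises the metallothionein genes MT1E, MT1F, MT1G, MT1M, MT1X and MT2A, the zinc-sensing transcription factor gene MTF1, the zinc exporter gene SLC30A1 and the zinc importer genes SLC39A10 and SLC39A14. Cells in one group of 3 libraries were infected with a pLVX-IRES-ZsGreen vector carrying TIM-1, and cells in the other group of 3, the empty-vector controls, received the same vector without TIM-1. All 6 libraries therefore come from infected cells with a ZsGreen reporter cassette, and each is bulk RNA of 1 cell line. TIM-1, encoded by HAVCR1, is a cell surface receptor for phosphatidylserine. The comparison asked how transcript levels differ between cells with and without this receptor. Separate cultures for the replicates are not mentioned in the labels. A p-value here therefore measures only the library-to-library spread, which may be technical.

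Metallothioneins are small cysteine-rich proteins that bind zinc, copper and cadmium and buffer the free metal in the cytosol. When free zinc rises, MTF1 enters the nucleus and binds metal response elements, short promoter motifs that activate the metallothionein genes and SLC30A1. SLC30A1 exports zinc across the plasma membrane, SLC39A10 brings zinc in, and SLC39A14 carries zinc, iron and manganese into the cell. Metallothionein genes also respond to glucocorticoids and to oxidative stress, and lie side by side on chromosome 16 as copies of one another. The 6 genes of the set there span 56608199 (MT2A) to 56684196 (MT1X) in GENCODE 29, with MT1E, MT1M, MT1F and MT1G between them in that order, and all but MT1G on the plus strand.

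Because copies of a gene can share reads, the coding sequences that the counts have to tell apart are shown first. In GENCODE 29 (GRCh38, the assembly also called hg38) each of the 6 metallothionein members has a coding sequence of 186 bases over 3 exons, with 61 codons before the stop, of which 20 are tgc or tgt, the cysteine codons. The sequences of MT2A (chromosome 16, 56608656 to 56609354, plus strand), MT1X (56682541 to 56684049, plus strand) and MT1G (56666879 to 56667993, minus strand) are given 5′ to 3′ on the coding strand. Capitals mark bases that differ from MT2A in an alignment without gaps.
MT2A: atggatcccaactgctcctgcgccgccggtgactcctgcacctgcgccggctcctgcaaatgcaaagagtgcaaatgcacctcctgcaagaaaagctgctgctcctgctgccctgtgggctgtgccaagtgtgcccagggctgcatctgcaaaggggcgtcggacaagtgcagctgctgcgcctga
MT1X: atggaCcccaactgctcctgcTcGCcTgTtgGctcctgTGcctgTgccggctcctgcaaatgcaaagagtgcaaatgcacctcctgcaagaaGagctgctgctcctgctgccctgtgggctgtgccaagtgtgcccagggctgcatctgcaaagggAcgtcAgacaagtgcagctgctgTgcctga
MT1G: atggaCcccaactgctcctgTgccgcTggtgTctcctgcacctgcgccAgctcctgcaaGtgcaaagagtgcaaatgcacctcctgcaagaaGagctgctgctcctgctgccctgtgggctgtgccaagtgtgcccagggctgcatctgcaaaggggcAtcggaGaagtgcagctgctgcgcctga
MT1X and MT1E each differ from MT2A at 14 of the 186 positions (92.5% identical), MT1F at 16, MT1M at 19 and MT1G at 9 (95.2% identical). Fewer stretches the length of a short read were shared. Of the distinct 50-base words in the annotated transcripts, 3.02% of those of MT2A, 1.22% of those of MT1F, 7.10% of those of MT1E and 9.87% of those of MT1M also occurred in a transcript of another gene, on either strand. For MT1G the share was 16.5% and for MT1X 18.3%. Of the 341 shared words of MT1X, 273 lay in AC026461.1, a gene annotated on the same strand over MT1X. The sources used here do not give the read length, so 50 bases is a yardstick and not the length of the reads.

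The promoter sequences show where the metal response element core lies in MT2A, in MT1X, the only MT1 gene with counts in every library, and in SLC30A1. RefSeq promoter sequences (GRCh38.p14) were matched for 5 of the 10 genes, namely MT2A, MT1X, MTF1, SLC30A1 and SLC39A10. The 250 bases before the RefSeq transcript start are printed 5′ to 3′ on the gene's strand, for MT2A at chr16:56608334-56608583 (plus strand), MT1X at chr16:56682220-56682469 (plus strand) and SLC30A1 at chr1:211579162-211579411 (minus strand). Capitals mark matches to TGCACNC or TGCGCNC on either strand.
MT2A: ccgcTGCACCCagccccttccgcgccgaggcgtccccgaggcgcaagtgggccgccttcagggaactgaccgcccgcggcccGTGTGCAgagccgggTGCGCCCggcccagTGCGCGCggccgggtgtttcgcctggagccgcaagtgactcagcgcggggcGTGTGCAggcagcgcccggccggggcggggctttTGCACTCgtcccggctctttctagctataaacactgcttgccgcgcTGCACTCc
MT1X: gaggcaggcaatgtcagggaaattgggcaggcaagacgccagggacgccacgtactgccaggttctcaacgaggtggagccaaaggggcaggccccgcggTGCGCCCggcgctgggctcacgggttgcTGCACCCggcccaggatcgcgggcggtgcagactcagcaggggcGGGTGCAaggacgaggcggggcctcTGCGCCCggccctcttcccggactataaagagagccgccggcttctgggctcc
SLC30A1: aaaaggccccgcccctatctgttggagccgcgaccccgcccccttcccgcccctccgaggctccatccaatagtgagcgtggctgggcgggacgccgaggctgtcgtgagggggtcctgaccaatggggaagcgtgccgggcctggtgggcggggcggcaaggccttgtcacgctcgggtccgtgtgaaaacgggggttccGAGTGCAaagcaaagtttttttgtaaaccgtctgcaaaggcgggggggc
MT2A held 7 matches and MT1X 4, while SLC30A1 held 1, between 49 and 43 bases before its start. No match overlapped another. Of 35116 promoter windows of the same length, 24.8% held at least 1 match, 0.37% at least 4 and 0.03% at least 7. MTF1 and the 2 RefSeq starts of SLC39A10 had 0 matches in this window, as had 75.2% of all windows. GENCODE 29 begins MT2A further upstream, at 56608199, and SLC39A10 upstream of both its windows, at 195575977. It begins SLC30A1, on the minus strand, further downstream, at 211578742. The position of a start, and with it the number of matches, thus depends on the annotation. Windows before the GENCODE starts were not searched. A match describes letters and not binding.

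**Figure D1:**
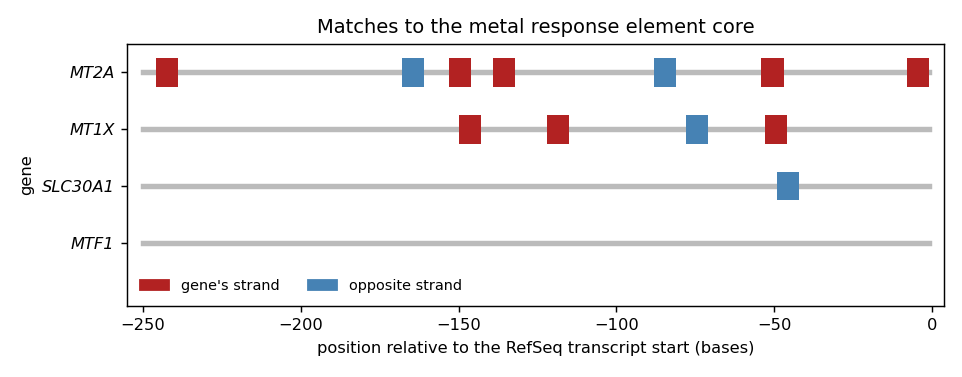
Positions of matches to the metal response element core (horizontal axis, bases relative to the RefSeq transcript start) in the 250 bases before MT2A, MT1X, SLC30A1 and MTF1, each bar being 1 match, coloured by strand. MT2A holds 7 matches, MT1X 4, SLC30A1 1 and MTF1 0.

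Total gene counts ran from 14312387 to 18605914 per library. HAVCR1 had 7069 to 11479 counts in the TIM-1 libraries and 0 to 4 in the controls. The mesenchymal marker VIM and the keratin gene KRT18 were abundant, at 1639 and 343 CPM (counts scaled to the TMM-adjusted size of each library) with TIM-1, against 1818 and 409 CPM in the controls. The epithelial marker EPCAM and the urothelial markers UPK3A and KRT20 had 0 counts in all 6 libraries, and CDH1 2 counts in 1 library. The epithelial marker KRT8 averaged 44.9 CPM over the 6 libraries. Of the 8 urothelial markers 3 had enough counts to be tested, PPARG, GATA3 and UPK1A, averaging 6.66, 1.36 and 0.581 CPM. All 5 leukocyte markers summed to at most 0.069 CPM. Among the 6 fibroblast markers DCN had 0 counts and LUM 1, while COL1A1 averaged 9.45 CPM with TIM-1, against 5.09 CPM in the controls, and the 3 endothelial markers summed to at most 0.27 CPM. With the replicate number as a block, KRT18 and GATA3 fell with TIM-1 by 0.24 and 1.25 on the log2 scale (edgeR adjusted p = 0.00946 and 0.0457). PPARG and COL1A1 rose by 0.62 and 0.90 (edgeR adjusted p = 0.0185 and 0.000265). That fit called 5.01% of all tested genes. Without the block none of these markers was called (edgeR adjusted p = 0.917, 0.676, 0.644 and 0.775, in the order named). GATA3 rests on 12 to 38 counts per library. The part of these markers in the zinc results was not tested. In either group, replicates 2 and 3 resembled each other more than replicate 1 did (chi-square per degree of freedom of 3.91 and 7.35 between replicates 2 and 3, and 16.7 to 24.8 against replicate 1), which bears on SLC30A1 below. In bulk RNA, fewer cells with a transcript and less of it per cell cannot be told apart.

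MT2A carried nearly all metallothionein reads of these cells. It held 13594, 14820 and 23745 counts in TIM-1 replicates 1 to 3, against 14328, 15709 and 16931 in control replicates 1 to 3. By mean CPM it was the 93rd most abundant of 14479 tested genes. Of the reads on the 6 metallothionein genes of the set and 11 further metallothionein genes and pseudogenes, MT2A took between 99.81% and 99.92% per library (exact 95% limits from 99.73% to 99.96%, counting error only). With 4 further pseudogenes outside the cluster counted as well, nearly all of whose reads lay in MT2P1, described below, the share was 96.62% to 97.73% (exact 95% limits from 96.32% to 97.91%).

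The MT1 genes were close to or at zero. MT1X, the only one with counts in every library, had 20, 22 and 14 counts in TIM-1 replicates 1 to 3, against 25, 15 and 32 in control replicates 1 to 3. MT1E had 1 count, in TIM-1 replicate 1, and MT1G 3 counts, in TIM-1 replicate 3. MT1F and MT1M had 0 counts in all 6 libraries, which allows up to between 0.162 and 0.207 CPM per library (3 counts, counting error only). Of the 11 other metallothionein genes and pseudogenes, MT1A, MT1B, MT1H, MT3, MT4, MT1HL1, MT1DP, MT1JP, MT1CP and MT1IP had 0 counts, and MT1L had 3 in all. Outside MT2A, the 6 genes of the set held 15 to 32 reads per library.

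The low MT1X count has an annotated overlap beside it. In GENCODE 29, exons of AC026461.1 cover 165 of the 450 bases of the MT1X transcript with 3 coding exons (36.7%), and AC026461.1 itself had 0 counts in all 6 libraries. How reads on 2 genes were counted is not stated in the labels, and the part of the overlap in the MT1X value was not tested. MT1E, MT1F, MT1G, MT1M and MT2A overlap no other annotated gene there.

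Per kilobase of annotated exon, which allows genes to be compared, MT2A was highest of the set at 773 CPM per kb over the 6 libraries, followed by SLC39A14 at 38.5 and SLC39A10 at 7.84. SLC30A1 at 3.83 and MTF1 at 3.32 followed, and their ranges over libraries overlapped (2.59 to 5.10 and 3.01 to 3.88 CPM per kb). MT1X was lower, between 0.426 and 1.09 CPM per kb. The ranges of MT2A, SLC39A14 and SLC39A10 did not overlap those of their neighbours in this order. Exon lengths merge all annotated transcripts, and for MT2A this covers the whole span of 1299 bases, which lowers its length-scaled level.

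**Figure D2:**
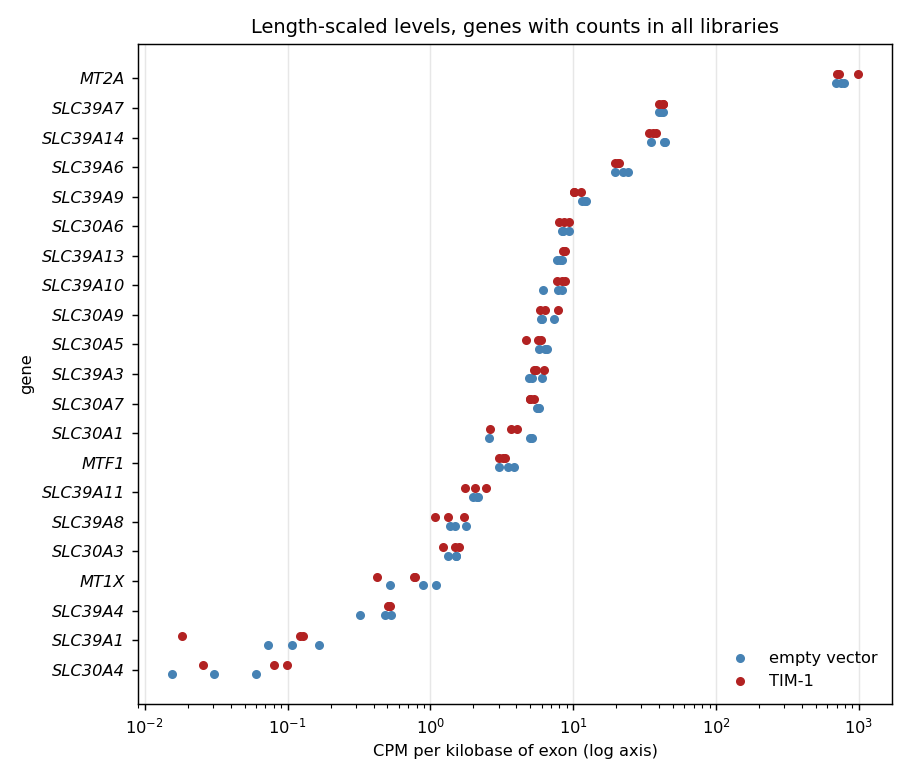
Level per kilobase of exon (horizontal log axis, CPM per kb) of the 21 metallothionein, MTF1 and zinc transporter genes with counts in all 6 libraries, out of 42, with 1 point per library coloured by group. MT2A, at 691 to 987 CPM per kb, stands above SLC39A7, SLC39A14 and all other genes drawn, while MT1X lies near 1 CPM per kb.

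None of the set passed the test of TIM-1 against the empty vector. Of the 10 genes, 6 had enough counts to be tested (MT2A, MT1X, MTF1, SLC30A1, SLC39A10 and SLC39A14), and MT1E, MT1F, MT1G and MT1M did not. In the edgeR quasi-likelihood test without pairing, 0 of the 6 were called, with adjusted p from 0.893 to 0.931, while 0.0138% of all 14479 tested genes were called. An unadjusted p under 0.05 was reached by 0 of the 6 and by 5.49% of all tested genes. With the replicate number as a block, called pairing here, 0 of the 6 were called (edgeR adjusted p from 0.0805 to 0.695), while 5.01% of all tested genes were called, 3.22% higher and 1.79% lower. An unadjusted p under 0.05 was then reached by 3 of the 6 (SLC30A1, SLC39A10 and SLC39A14) and by 18.3% of all tested genes. DESeq2 called 0 of the 6 with the block and 0 without it, against 1.44% and 0.173% of all tested genes. With the block DESeq2 gave MT1X no adjusted p, so MT1X could not be called there. An unadjusted p under 0.05 in DESeq2 was reached by 1 of the 6 with the block and 0 without it, against 8.87% and 4.45% of all tested genes. The median log2 fold change over the 6 was -0.15 in both edgeR fits, and that of all tested genes 0.0.

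MT2A did not differ between the groups beyond the spread of its libraries. Its level was 938, 917 and 1282 CPM in TIM-1 replicates 1 to 3, against 898, 971 and 1021 CPM in control replicates 1 to 3. TIM-1 replicate 3 was the highest library, and the other 5 lay within 898 to 1021 CPM, so the groups overlapped. The mean was 1045 ± 205 CPM with TIM-1, against 963 ± 62.3 CPM (SD, n = 3 each). This gave a log2 fold change of 0.12 (95% interval -0.17 to 0.40, edgeR adjusted p = 0.931). With pairing it was 0.10 (95% interval -0.03 to 0.23, edgeR adjusted p = 0.404). Without TIM-1 replicate 3 the direction turned, to -0.06, and the TIM-1 mean was 927 CPM.

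The sum over the 6 metallothionein members, which does not depend on how reads were divided among them, was 1047 ± 204 CPM with TIM-1, against 965 ± 62.3 CPM in the controls (SD, n = 3 each). The log2 ratio of these means was 0.12, and it turned to -0.05 without TIM-1 replicate 3. Reads were also counted on a copy outside the cluster. MT2P1, a processed pseudogene of MT2A on chromosome 4 (68376323 to 68376505, plus strand), was named after its values were seen. Its 183 bases match 178 positions of the MT2A coding sequence, and it had 385, 492 and 533 counts with TIM-1, against 402, 431 and 536 in the controls. These amounted to 2.24% to 3.32% of the MT2A count of the same library. MT2P1 stood at 28.6 ± 1.95 CPM with TIM-1, against 28.1 ± 3.78 CPM (SD, n = 3 each), a log2 fold change of 0.03 (edgeR adjusted p = 0.990). Whether these reads came from MT2A was not tested.

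MT1X, the best counted of the MT1 genes, did not pass the test. Its level was 1.38, 1.36 and 0.756 CPM in TIM-1 replicates 1 to 3, against 1.57, 0.928 and 1.93 CPM in control replicates 1 to 3. The lowest library was TIM-1 replicate 3, where MT2A was highest, and the groups overlapped. The mean was 1.17 ± 0.355 CPM with TIM-1, against 1.48 ± 0.508 CPM (SD, n = 3 each). The log2 fold change was -0.35 (95% interval -1.23 to 0.53, edgeR adjusted p = 0.931), the widest interval of the 6 genes. It ran the other way, at 0.16, with pairing and without the replicate 3 pair.

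MTF1, the zinc-sensing activator of the metallothionein genes (chromosome 1, 37809567 to 37859620, minus strand), was at 25.7, 26.6 and 24.2 CPM in TIM-1 replicates 1 to 3, against 24.1, 31.1 and 27.8 CPM in control replicates 1 to 3. The TIM-1 libraries lay within the range of the controls. The mean was 25.5 ± 1.2 CPM with TIM-1, against 27.7 ± 3.5 CPM (SD, n = 3 each). The log2 fold change was -0.12 (95% interval -0.40 to 0.16, edgeR adjusted p = 0.931), and -0.11 with pairing (edgeR adjusted p = 0.591).

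SLC30A1, the plasma membrane zinc exporter gene (chromosome 1, 211571568 to 211578742, minus strand), ranged more widely within each group than the group means differed. Its level was 14.2, 22.2 and 20.0 CPM in TIM-1 replicates 1 to 3, against 14.2, 27.2 and 27.9 CPM in control replicates 1 to 3. Replicate 1 was lowest in both groups, where the 2 libraries had the same level, while in replicates 2 and 3 the TIM-1 library was the lower. The mean was 18.8 ± 4.14 CPM with TIM-1, against 23.1 ± 7.75 CPM (SD, n = 3 each). The log2 fold change was -0.29 (95% interval -0.90 to 0.31, edgeR adjusted p = 0.921), and -0.28 with pairing (95% interval -0.50 to -0.05, edgeR adjusted p = 0.144). Without the replicate 1 pair the paired value was -0.39 and passed the threshold (edgeR adjusted p = 0.0346), and without the replicate 2 or the replicate 3 pair it did not (0.527 and 0.661). The fit without the replicate 1 pair called 398 of all genes lower, against 259 with all pairs, and has few residual degrees of freedom. Without pairing the value was -0.55 without control replicate 1 (edgeR adjusted p = 0.230). It was -0.13, -0.14 and -0.16 without TIM-1 replicate 1, control replicate 3 and control replicate 2.

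SLC39A14, the most highly expressed zinc importer gene of the set (chromosome 8, 22367249 to 22434129, plus strand), was lower in the TIM-1 library of every one of the 3 pairs without passing the test. Its level was 236, 253 and 262 CPM in TIM-1 replicates 1 to 3, against 244, 306 and 302 CPM in control replicates 1 to 3. Control replicate 1 lay among the TIM-1 libraries, so the groups overlapped. The mean was 250.1 ± 13.5 CPM with TIM-1, against 284 ± 34.6 CPM (SD, n = 3 each). The log2 fold change was -0.18 (95% interval -0.41 to 0.04, edgeR adjusted p = 0.893), and the same with pairing (95% interval -0.30 to -0.05, edgeR adjusted p = 0.0805). Without the replicate 1 pair the paired value was -0.24 and passed the threshold (edgeR adjusted p = 0.0339), and without the replicate 2 or the replicate 3 pair it did not (0.662 and 0.188). As for SLC30A1, the fit without the replicate 1 pair called 398 of all genes lower, against 259 with all pairs. Without control replicate 1 and without pairing the SLC39A14 value was -0.28 (edgeR adjusted p = 0.232).

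SLC39A10, an importer gene that MTF1 is known to repress when zinc is high (chromosome 2, 195575977 to 195737702, plus strand), had its higher level in the TIM-1 library of every one of the 3 pairs and did not pass the test. Its level was 57.9, 60.4 and 52.9 CPM in TIM-1 replicates 1 to 3, against 57.2, 54.4 and 42.5 CPM in control replicates 1 to 3. Control replicate 3 was the lowest library, and the groups overlapped. TIM-1 replicate 3, at 52.9 CPM, lay below control replicate 2, at 54.4 CPM, so the single direction depends on pairing by replicate number. The mean was 57.1 ± 3.82 CPM with TIM-1, against 51.4 ± 7.81 CPM (SD, n = 3 each). The log2 fold change was 0.15 (95% interval -0.13 to 0.43, edgeR adjusted p = 0.921) and 0.16 with pairing (95% interval 0.0 to 0.32, edgeR adjusted p = 0.266). Without control replicate 3 and without pairing it was 0.03.

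SLC39A10 and SLC39A14 were the 2 of the 6 tested genes with one direction in all 3 pairs, as were 39.2% of all tested genes. Groups without overlap were found for 0 of the 6 and for 11.7% of all tested genes. Both shares describe these libraries, and neither sets the 6 genes apart from the rest. Pairs follow the replicate numbers, whose meaning the labels do not state, and correlations between libraries do not tell the numbers 2 and 3 apart.

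**Figure D3:**
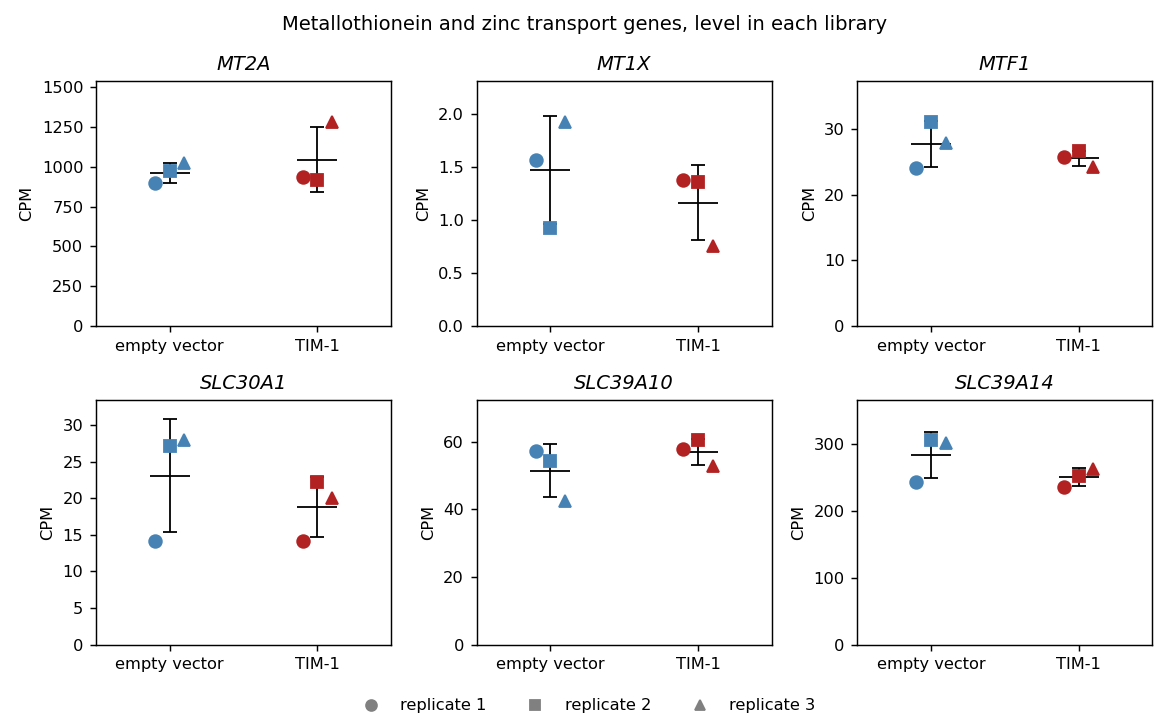
Level in each library (vertical axis, CPM from 0) of the 6 tested genes by group, with the marker shape giving the replicate number and the black bars the mean and SD of 3 libraries. The groups overlap for all 6 genes, TIM-1 replicate 3 is the highest MT2A library at 1282 CPM, and both replicate 1 libraries are lowest for SLC30A1 at 14.2 CPM.

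**Figure D4:**
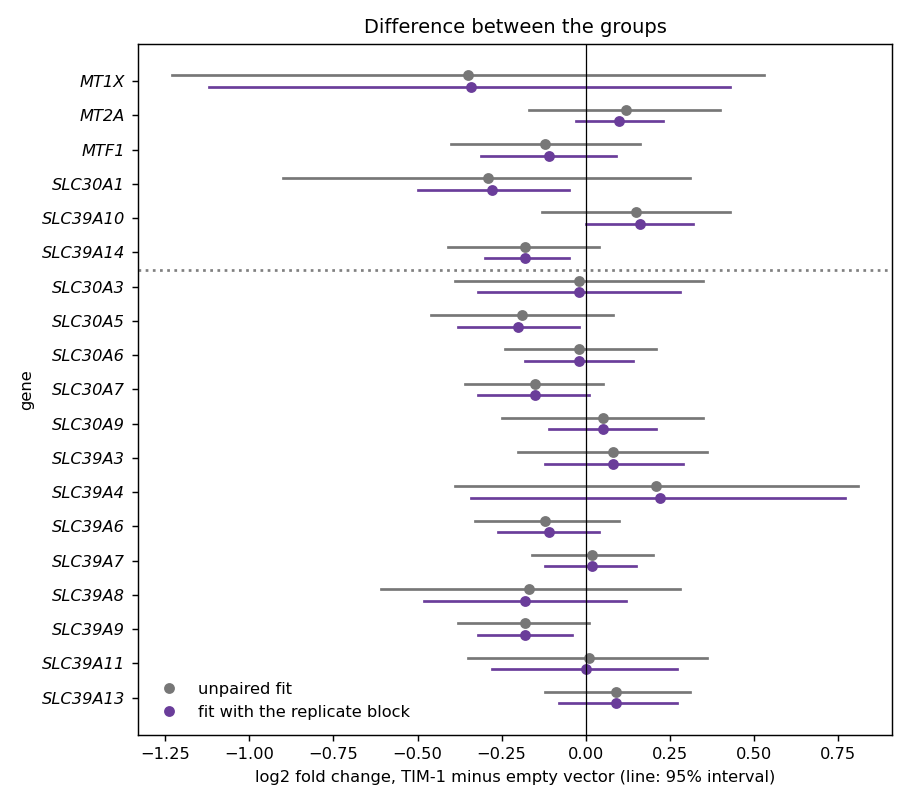
Log2 fold change of TIM-1 minus empty vector (horizontal axis) with 95% intervals for the 6 tested genes, above the dotted line, and for 13 other zinc transporter genes, in the unpaired fit and the fit with the replicate block. All point estimates lie between -0.35 and 0.22, and the intervals of MT1X are the widest of the set.

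The rest of the zinc transporter families gave 0 calls too. Of the 24 SLC30 and SLC39 genes, 16 were tested and 4 had 0 counts in all libraries (SLC30A2, SLC30A8, SLC30A10 and SLC39A12). Neither edgeR fit called any of the 16, while 5.01% of all tested genes were called with pairing and 0.0138% without it. The 5 tested exporters outside the set had log2 fold changes from -0.19 to 0.05 without pairing and a median of -0.02, and the 8 tested importers from -0.18 to 0.21 and a median of 0.01. SLC39A7, which releases zinc from the endoplasmic reticulum, stood at 118 ± 4.43 CPM with TIM-1, against 117 ± 4.14 CPM (SD, n = 3 each), and its paired 95% interval ran from -0.12 to 0.15. SLC39A9, a zinc transporter gene of the secretory pathway, stood at 75.2 ± 4.86 CPM with TIM-1, against 85.3 ± 2.65 CPM (SD, n = 3 each). The paired log2 fold change of SLC39A9 was -0.18 (edgeR adjusted p = 0.123). Its groups did not overlap, as for 11.7% of all tested genes. Nor did those of SLC30A7, lower with TIM-1, and SLC39A13, higher, both named after their values were seen. SLC30A9 and SLC30A6 had paired log2 fold changes of 0.05 and -0.02. Reads of SLC39A7 and SLC39A9 can overlap the antisense genes RXRB and ERH, which share 8.6% and 5.2% of their exonic bases.

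Copper handling genes, whose ions metallothioneins also bind, gave 0 calls of 8 tested in either edgeR fit, with a median log2 fold change of 0.07. Of all tested genes 5.01% were called with pairing and 0.0138% without it. The superoxide dismutase gene SOD1 stood at 226 ± 11.4 CPM with TIM-1, against 208 ± 11.9 CPM in the controls (SD, n = 3 each). The copper chaperone gene ATOX1 stood at 65.5 ± 5.43 CPM, against 58.1 ± 10.6 CPM (SD, n = 3 each). Their paired log2 fold changes were 0.12 and 0.18 (edgeR adjusted p = 0.288 and 0.169).

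Some genes that metals are known to induce beside the metallothioneins did fall with TIM-1 when the libraries were paired. Of 10 tested metal-inducible stress genes, 3 fell and 0 rose in edgeR with pairing, against 1.79% and 3.22% of all tested genes. Without pairing edgeR called 0 of the 10, against 0.0138% of all tested genes. The list was chosen with earlier results of these data known, and its counts were not tested against these shares. HMOX1, the heme-degrading enzyme gene, was at 157, 392 and 418 CPM in TIM-1 replicates 1 to 3, against 236, 506 and 509 CPM in control replicates 1 to 3. SLC7A11, the cystine importer gene, was at 8.76, 23.3 and 22.3 CPM against 18.3, 39.1 and 32.0 CPM. In each pair the TIM-1 library was the lower for both genes. The paired log2 fold changes were -0.41 for HMOX1 (edgeR adjusted p = 7.26e-06) and -0.74 for SLC7A11 (edgeR adjusted p = 3.22e-06), against unpaired adjusted p of 0.941 and 0.906. HSPA1B, an inducible HSP70 gene with a near-identical copy in HSPA1A, was at 60.3, 48.0 and 49.3 CPM, against 85.5, 57.0 and 59.3 CPM. Its paired value was -0.34 (edgeR adjusted p = 0.00326), a call lost when the replicate 1 pair was left out (-0.26, adjusted p = 0.0639) and also in DESeq2 under the block (-0.35, adjusted p = 0.0534). HSPA1A, named after its values were seen, had a paired value of -0.13 (edgeR adjusted p = 0.355). The paired intervals of MT2A and MT1X included 0 in the same libraries.

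Glucocorticoid-responsive genes, another class that shares inducers with the metallothioneins, gave 1 call upward and 0 downward of 7 tested in edgeR with pairing. The shares of all tested genes were 3.22% and 1.79%. Without pairing edgeR called 0 of the 7, against 0.0138% of all tested genes. The call was KLF9, a Kruppel-like transcription factor gene, at 6.90, 3.71 and 4.64 CPM with TIM-1, against 2.00, 2.16 and 1.57 CPM in the controls (paired log2 fold change 1.38, edgeR adjusted p = 0.000152). The groups did not overlap for KLF9. Without pairing, KLF9 had a value of 1.40 and missed the threshold in edgeR with the low-count filter (adjusted p = 0.379), but passed it in edgeR without the filter (0.00198) and in DESeq2 (0.0364). The median of the 7 was 0.04 with pairing, and DUSP1 and SGK1, named after their values were seen, had paired values of 0.04 and -0.24 (edgeR adjusted p = 0.835 and 0.0728).

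The exporter gene SLC30A1 and the importer gene SLC39A14 were lower in replicate 1 than in the other replicates. Replicate 1 was compared with replicates 2 and 3 with the group as a term, a split taken up because earlier results of these data showed it. In this edgeR test 2 of the 6 tested genes were lower and 0 higher, while 23.6% of all tested genes were called, 12.0% lower and 11.6% higher. An unadjusted p under 0.05 was reached by the same 2 genes of the 6 and by 35.9% of all tested genes. SLC30A1 averaged 14.2 CPM in the 2 replicate 1 libraries and 24.3 CPM in the other 4 (log2 difference -0.77, SE 0.12, edgeR adjusted p = 4.83e-05), and it stayed lower, between -0.57 and -0.96, when any 1 library was left out. SLC39A14 averaged 240 and 281 CPM (log2 difference -0.22, edgeR adjusted p = 0.0162). That call was lost when any of TIM-1 replicate 3, control replicate 1 or control replicate 2 was left out (edgeR adjusted p = 0.0690, 0.423 and 0.0579), with differences of -0.22, -0.13 and -0.21.

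MT2A averaged 918 CPM in replicate 1 and 1048 CPM in the others (log2 difference -0.19, edgeR adjusted p = 0.229), and passed the threshold without TIM-1 replicate 2 (-0.28, edgeR adjusted p = 0.00925). MT1X, MTF1 and SLC39A10 had differences of 0.25, -0.13 and 0.14 (edgeR adjusted p = 0.693, 0.397 and 0.326). HMOX1 and SLC7A11 had replicate 1 differences of -1.23 and -1.14 (edgeR adjusted p = 3.48e-12 and 3.68e-07), and HSPA1B one of 0.44 (edgeR adjusted p = 0.000265). Of the 10 metal-inducible stress genes, 4 were lower and 3 higher in replicate 1, against 12.0% and 11.6% of all tested genes. What sets replicate 1 apart is not given in the labels. A term for replicate 1 against the others was also fitted, chosen after seeing the data. With it the TIM-1 values of SLC30A1 and SLC39A14 were -0.27 and -0.18 (edgeR adjusted p = 0.182 and 0.118). The part of replicate 1 in these differences was not tested beyond this term and the values with and without that pair.

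**Figure D5:**
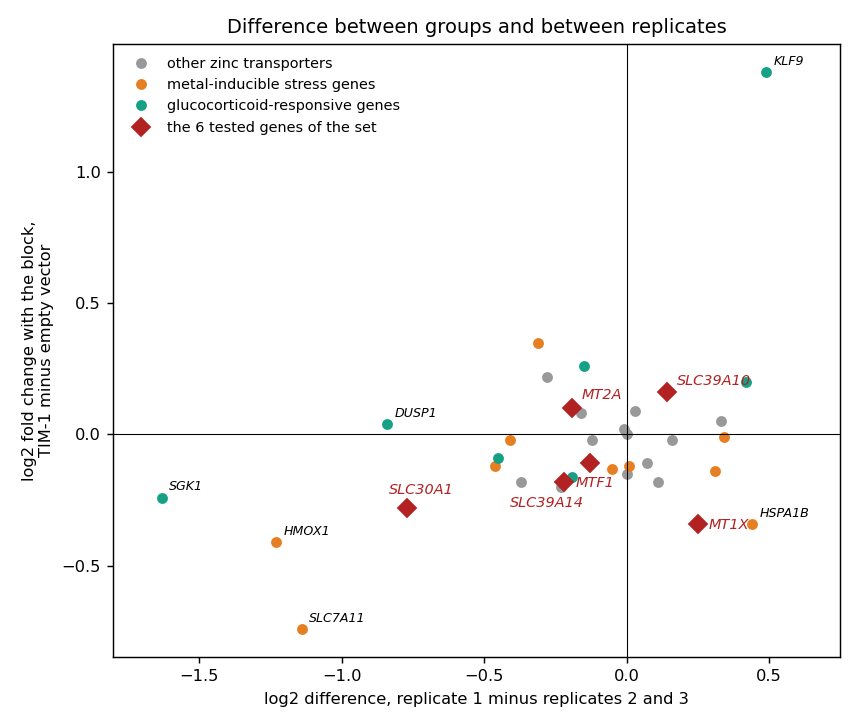
Log2 difference of replicate 1 minus replicates 2 and 3 (horizontal axis) against the paired log2 fold change of TIM-1 minus empty vector (vertical axis), with 1 point per tested gene coloured by list. SLC30A1 lies at -0.77 and -0.28 in the lower left, where genes of every other list drawn also lie, and MT2A near the centre at -0.19 and 0.10.

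The genes with the pattern most like that of MT2A over the 6 libraries were UXT, TMEM143, GALT, ALG12 and BOLA3. Likeness was the root mean square difference between log2 CPM values centred on each gene's own mean, among 11478 protein-coding genes with a mean of at least 1 CPM. It was 0.0446 for UXT and 0.0519 for BOLA3, the fifth, against a median of 0.231 over all genes compared. UXT was at 8.35, 8.29 and 10.7 CPM with TIM-1, against 7.96, 8.97 and 8.87 CPM in the controls, highest like MT2A in TIM-1 replicate 3. This shared peak follows from its choice by likeness to MT2A and is no separate result.

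SLC30A1 was followed most closely by SESN2, CSKMT, NOCT, CNTNAP1 and FAM167A, with differences from 0.0256 to 0.0771 against a median of 0.411 over 11477 genes. Here too the distance below the median follows from the choice of the nearest genes. SLC30A1 itself spread by 0.396 about its own mean. SESN2, which encodes a stress-inducible sestrin, was at 19.0, 30.6 and 27.6 CPM in TIM-1 replicates 1 to 3, against 19.8, 38.1 and 39.3 CPM in control replicates 1 to 3. Its paired log2 fold change was -0.31 and its replicate 1 difference -0.80. Both values follow from its choice by likeness to SLC30A1 and are no separate result.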

How the data were processed

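RNA of 6 UMUC3 libraries was sequenced, and groups follow the labels' treatment and replicate numbers their titles. The authors deposited raw counts of reads for each Ensembl gene, not normalized. HISAT2 2.0.5, featureCounts 1.5.0-p3, DESeq2 1.16.1 and hg38 are named in the submitters' processing notes. The sources used here give no annotation release, strand setting or treatment of multi-mapping reads, so reads of overlapping or near-identical genes may have been divided or left out.

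Symbols were found for 60463 identifiers, and positions and exon lengths came from GENCODE 29. Tests used edgeR 4.0.16 in R 4.3.3 (quasi-likelihood F test, robust, TMM), with filterByExpr at a minimum count of 10 leaving 14479 genes, Benjamini-Hochberg adjustment over all of them and a threshold of 0.05. Log2 fold changes subtract the empty vector from TIM-1, with 95% intervals from the F statistic. DESeq2 1.42.0, other factors, no filter, leaving out libraries and the replicate block were alternatives. The scripts were tested on simulated data.

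The deviations from the group mean of libraries with the same number correlated, over genes, at 0.50, 0.20 and 0.24 for replicates 1, 2 and 3, all above the limit of 0.1, so paired values are given. Between different numbers they ran from -0.37 to 0.24. TIM-1 replicate 3 with control replicate 2 gave 0.24, and TIM-1 replicate 2 with control replicate 3 gave 0.18, both also above the limit. The check thus backs the pairing of replicate 1 only and does not tell the numbers 2 and 3 apart. The numbers' meaning is not stated in the labels. Within-group libraries differed by more than sampling noise (chi-square per degree of freedom from 3.91 to 24.8).

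The members and gene lists were chosen with earlier results of these data known. All 10 members were named, then up to 3 called genes per list or, with none called, the 2 of highest mean CPM, and the 5 genes nearest to MT2A and to SLC30A1. Genes named otherwise are marked or serve as controls. Pairwise alignments used Biopython 1.88.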

Additional observations from a re-analysis of the deposited data

How the results depend on the processing

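Without pairing the edgeR test called 2 genes higher and 0 lower among all genes. With the replicate block it called 466 and 259, with DESeq2 24 and 1, with DESeq2 and the block 131 and 78, without the low-count filter 60 and 12, and with a term for replicate 1 against the others, chosen after seeing the data, 348 and 162. Leaving out 1 library gave from 1 to 8 higher and from 0 to 1 lower. With the block, leaving out the replicate 1 pair gave 440 and 398, the replicate 2 pair 152 and 57, and the replicate 3 pair 339 and 134. Among the set, 2 genes (SLC30A1 and SLC39A14) were called lower with the block without the replicate 1 pair, and 0 under each of the other 14 alternatives. The fit without the replicate 1 pair also called the most genes lower among all genes (398), and their share of the tested genes was not computed. In the 6 other metal and stress lists together, 1 gene was called higher with the block, by DESeq2 with and without it, without the filter, with the replicate 1 term and with the block without each pair. Called lower were 3 genes with the block, 2 by DESeq2 with the block, 3 with the replicate 1 term, and 2, 3 and 3 with the block without the pairs of replicates 1, 2 and 3. In the replicate 1 contrast the genes of the set called lower fell from 2 to 1 without TIM-1 replicate 3, control replicate 1 or control replicate 2. Leaving out 1 library moved MT2A from -0.06 to 0.20 and MTF1 in the replicate 1 contrast from -0.29 to 0.02. Directions turned for MT2A and the summed metallothioneins without TIM-1 replicate 3 (-0.06 and -0.05), for MT2A with the block without the replicate 3 pair (-0.01), for MT1X with the block without that pair (0.16), and for MTF1 in the replicate 1 contrast without control replicate 1 (0.02). MT2A in that contrast passed the threshold without the filter (-0.21, edgeR adjusted p = 0.0154). Other normalization factors changed no call of the set. Fits without a pair have few residual degrees of freedom. The cause of these changes was not tested. MT1X rests on 14 to 32 counts per library, and depth leaves MT1E, MT1F, MT1G and MT1M untested.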

Other observations

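SLC39A1, which encodes a plasma membrane zinc importer, was nearly absent from the table, and was looked at after its values were seen. It had counts of 6, 1 and 8 in TIM-1 replicates 1 to 3, against 9, 4 and 6 in control replicates 1 to 3. In GENCODE 29 another gene on the same strand, AL358472.7, shares 2061 of its 3388 exonic bases (60.8%). AL358472.7 had 0 counts in all 6 libraries. JTB, whose overlap with AL358472.7 was not measured, held 5, 7 and 14 reads with TIM-1, against 10, 20 and 15 in the controls. The JTB counts are thus not tied to an overlap here. MT1X, under AC026461.1, is the member of the set with such an overlap. MT1B, which had 0 counts, shares 31.6% of its exonic bases with AC026461.2, also at 0 counts. Whether reads of SLC39A1, MT1X and MT1B were set aside for fitting 2 genes was not tested, since the deposited counts do not hold unassigned reads.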
